A study of Danio rerio with 20 samples.

Results

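The 100 most abundant transcripts of untreated zebrafish (Danio rerio) larvae were followed across 4 groups of RNA sequencing libraries. They are the 100 of 57775 Ensembl transcripts with the highest mean TPM over the 5 untreated libraries. TPM divides the reads of a transcript by its usable length and scales each library to the same total, so it allows levels to be compared between transcripts of different length. Because untreated levels chose the members, their untreated levels and every comparison with the untreated libraries are descriptions. For those comparisons the counts of members past the threshold of the fit stand beside the same share over all transcripts, and they support nothing. Comparisons between exposed groups used none of the values that chose them, and these carry a test.

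Libraries came from pools of 20 wild type whole larvae (strain given only as WT) that were 10 days old. The groups were larvae kept for 48 hours with nanosheets of lithium cobalt oxide (LCO), a battery cathode material, at 10 mg/L or at 1 mg/L, larvae exposed to a treatment labelled ion, whose composition and dose the labels do not give, and untreated control larvae. Each group held 5 libraries, all larvae had been fed a larval food powder from day 5 of life, and total estimated counts were 24950529 to 63120039 per library. The series' text says that 6 pools per group were collected and that samples were chosen on RNA quality. The labels do not say whether pools shared parents or tanks, so the p-values reflect only how these pools varied, which may be partly technical.

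In a whole fish larva, a small number of genes usually supplies a large part of all messenger RNA. Typical sources are ribosomal proteins and translation factors, the contractile proteins and metabolic enzymes of trunk muscle, the crystallins of the lens, the digestive enzymes of the pancreas, and the genes of the mitochondrial genome. Some of these are made in nearly every cell and others in 1 tissue, and a pool of whole animals mixes them. None of the 57775 identifiers matched the name tables used here (0 of the 100 members were paired with a gene name). Members are therefore given by identifier and rank, no role is assigned to any of them, and the defining markers of larval tissues could not be checked.

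In control larvae the single highest transcript held 1.56% of all TPM. The first 10 held 11.2%, the first 50 held 28.4% and all 100 held 41.8%, while a list of 200 held 55.6%. Of the total, 25% was reached after 41 transcripts, 50% after 149, and 90% only after 6776. The edge of the list was not a natural gap. Just inside it, ENSDART00000143913.3 and ENSDART00000005944.8 averaged 2172 ± 76.4 and 2150 ± 59 TPM (SD, n = 5), and just outside it ENSDART00000191876.1 and ENSDART00000015732.8 averaged 2133 ± 171 and 2113 ± 208 TPM (SD, n = 5). These differences were smaller than the spread between pools.

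The members were short. Their median length was 676.5 bases (165 to 2845), against 1180 bases for the 900 transcripts at ranks 101 to 1000 and 1857 bases for all 39355 transcripts that passed the filter on low counts. All 100 members passed that filter. Since TPM is a level per length, short transcripts weigh more in it than in reads, and the same 100 transcripts that held 41.8% of control TPM held 22.6% of control counts. Reads of 25 members were assigned to whole numbers in all 20 libraries (within 0.001 of a count), while 7 members had fractional counts in every library, as happens when reads are shared with other transcripts. Levels of those 7 are less certain than those of the 25. The remaining members had fractional counts in some libraries and are also less certain. Among them, ENSDART00000182970.1 had whole counts in only 2 of 20 libraries and ENSDART00000188780.1 in 5 of 20.

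The 5 highest members in controls were ENSDART00000093609.3 at 15567 ± 565 TPM, ENSDART00000182970.1 at 15224 ± 15037, ENSDART00000010144.7 at 14724 ± 1071, ENSDART00000093606.3 at 14447 ± 429 and ENSDART00000093613.3 at 13470 ± 381 TPM (SD, n = 5 each). Ranks 1 to 4 overlapped between pools, and rank 5 overlapped ranks 2, 3 and 4, so their order is not fixed by the data. Ranks 6 to 10 were ENSDART00000093611.3 at 9262 ± 1059, ENSDART00000023156.7 at 8367 ± 342, ENSDART00000143291.2 at 8111 ± 388, ENSDART00000055062.5 at 6419 ± 418 and ENSDART00000077661.7 at 6235 ± 593 TPM (SD, n = 5 each). The step from rank 5 to rank 6 was larger than the spread between pools, and ranks 6 to 8 and ranks 9 and 10 again overlapped. Rank 2 differs from the others in that its SD was almost as large as its mean. Its control range, 7480 to 42039 TPM, also spanned ranks 6 to 8. Within control replicates 1 to 5 it ranked 8, 5, 8, 1 and 7, so its place by mean rests on replicate 4.

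**Figure D1:**
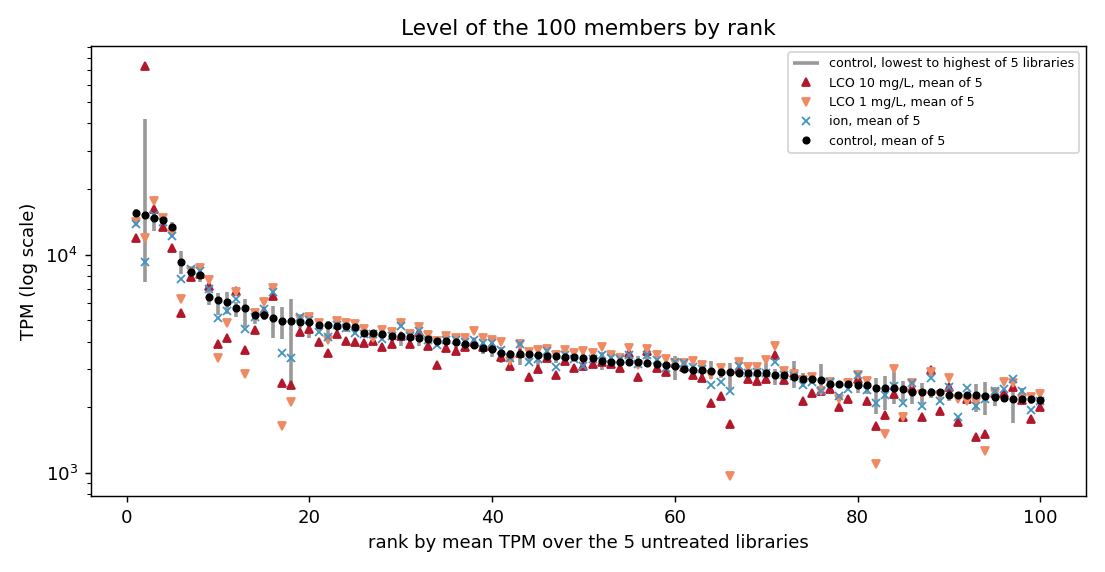
TPM on a log scale against rank by mean control TPM for the 100 members, with the range over 5 control libraries as grey bars and group means as symbols. Levels drop quickly over the first 10 ranks and slowly after that; rank 2 has the widest control range, 7480 to 42039 TPM, and in LCO 10 mg/L replicate 2 it took 25.1% of a total that is fixed, which leaves less for all other members in that library.

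The summed share of the members overlapped between each exposed group and control. The 100 members held 41.6, 51.1, 43.7, 41.4 and 39.9% of TPM in LCO 10 mg/L replicates 1, 2, 3, 4 and 6. They held 40.3, 40.5, 41.9, 42.0 and 42.1% in LCO 1 mg/L replicates 1, 2, 3, 5 and 6, and 41.0, 40.7, 41.4, 39.7 and 39.7% in ion replicates 1, 2, 3, 4 and 6. In control replicates 1 to 5 they held 41.0, 42.2, 41.5, 42.9 and 41.5%. Group means were 43.5 ± 4.45% at LCO 10 mg/L, 41.3 ± 0.876% at LCO 1 mg/L, 40.5 ± 0.786% under ion and 41.8 ± 0.760% in control (SD, n = 5 each). Apart from replicates 2 and 3 of LCO 10 mg/L, all exposed libraries lay between 39.7 and 42.1%.

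Removing ENSDART00000182970.1 turned the direction of the mean at LCO 10 mg/L. The other 99 members held 38.9 ± 2.52% of the remaining TPM at LCO 10 mg/L, 40.6 ± 1.04% at LCO 1 mg/L, 39.95 ± 0.825% under ion and 40.9 ± 0.478% in control (SD, n = 5 each). The LCO 10 mg/L mean includes replicate 2 at 34.7%. There the remaining TPM also held the non-members ENSDART00000126982.3 and ENSDART00000185964.1, at 45122 and 18837 TPM. Medians were 39.4% at LCO 10 mg/L and 41.0% in control. In the counts, where a short transcript weighs less, all 100 members held 21.5 ± 0.735% at LCO 10 mg/L, 21.6 ± 1.12% at LCO 1 mg/L, 21.3 ± 0.650% under ion and 22.6 ± 0.526% in control (SD, n = 5 each). On that scale 3 of 5 LCO 10 mg/L, 2 of 5 LCO 1 mg/L and 4 of 5 ion libraries lay below all 5 controls, and each group still overlapped them.

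**Figure D2:**
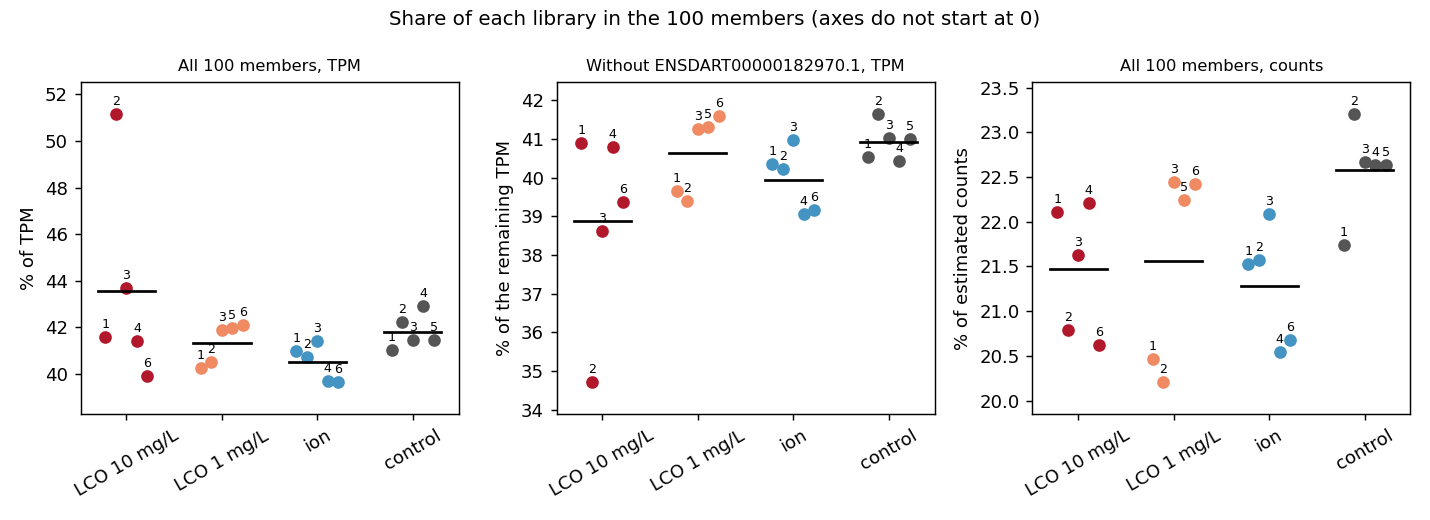
Percent of TPM (left), percent of the remaining TPM without ENSDART00000182970.1 (middle) and percent of estimated counts (right) held by the members in each library, with replicate numbers and group means as lines. LCO 10 mg/L replicate 2 is highest in the left panel at 51.1% and lowest in the middle panel at 34.7%; axes do not start at 0.

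The lowest shares of counts belonged to particular libraries of each exposed group. The first principal component of all tested transcripts (14.7% of the variance) set 8 libraries apart from the other 12, namely LCO 10 mg/L replicates 2, 3, 4 and 6, LCO 1 mg/L replicates 1 and 2 and ion replicates 4 and 6. The 6 lowest shares of counts, 20.2 to 20.8%, all belonged to libraries among these 8. The other libraries of the 8, LCO 10 mg/L replicates 3 and 4, held 21.6 and 22.2%. Replicate 4 lay within the control range of 21.7 to 23.2%. The fragment length gap, by which the deposited effective length falls short of the transcript length, was 162 ± 3.60 bases at LCO 10 mg/L, 161 ± 4.39 at LCO 1 mg/L, 158 ± 6.06 under ion and 152 ± 5.98 in control (SD, n = 5 each), and it bears most on the TPM of short transcripts. The part of either in the shares was not tested.

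ENSDART00000182970.1, 168 bases long, was the one member that surged in single libraries. Its TPM was 11798, 251493, 82605, 10577 and 8820 in LCO 10 mg/L replicates 1, 2, 3, 4 and 6, and 10268, 18892, 11029, 11159 and 8445 in LCO 1 mg/L replicates 1, 2, 3, 5 and 6. It was 11073, 8593, 7412, 10598 and 8549 in ion replicates 1, 2, 3, 4 and 6, and 7996, 10555, 7480, 42039 and 8050 in control replicates 1 to 5. Thus 2 LCO 10 mg/L libraries, 1 LCO 1 mg/L library and 1 control library stood above the rest, the other 16 lay close together, and all groups overlapped. Its deposited effective length averaged 43.8 bases in controls, so a modest number of reads becomes a large TPM. In LCO 10 mg/L replicate 2 it made up 25.1% of TPM but 1.31% of counts.

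**Figure D3:**
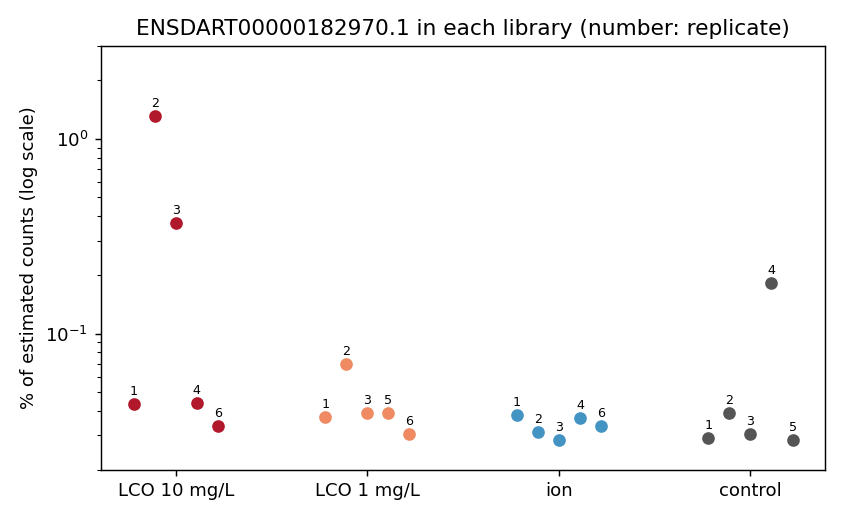
Percent of estimated counts assigned to ENSDART00000182970.1 in each library on a log scale, with replicate numbers. LCO 10 mg/L replicates 2 and 3 (1.31 and 0.368%) and control replicate 4 (0.181%) stand apart from the other 17 libraries, the highest of which is LCO 1 mg/L replicate 2 at 0.0699%.

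Its fold changes rested on those libraries. The fitted log2 fold change at LCO 10 mg/L against control was 2.63 (SE 0.86) and was not called by edgeR. It was called by DESeq2 (2.64), and by edgeR without LCO 10 mg/L replicate 1 (2.93) or without control replicate 4 (3.59). Against LCO 1 mg/L it was 3.17 (SE 0.88; edgeR adjusted p = 0.178) and against ion 3.54 (SE 0.89; edgeR adjusted p = 0.112). Against control it was -0.63 without LCO 10 mg/L replicates 2 and 3, a choice made after seeing the data. Without the 8 libraries set apart, which leaves only replicate 1 of LCO 10 mg/L, it was -0.53.

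The highest transcripts outside the list at LCO 10 mg/L were high in the same libraries. ENSDART00000126982.3, rank 157 in control, had 1048, 45122, 5514, 1191 and 938 TPM in LCO 10 mg/L replicates 1, 2, 3, 4 and 6, and 677, 908, 769, 3023 and 660 TPM in control replicates 1 to 5. ENSDART00000185964.1, rank 267 in control and 306 bases long, had 437, 18837, 14182, 530 and 416 TPM in those LCO 10 mg/L libraries, and 291, 403, 327, 1244 and 335 TPM in those controls. Both were highest in LCO 10 mg/L replicates 2 and 3 and, among controls, in replicate 4, the libraries in which ENSDART00000182970.1 surged.

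Most other members were steady between untreated pools. On CPM, counts per 1000000 counts after edgeR's TMM scaling, the coefficient of variation (CV, SD as a percent of the mean) over the 5 controls had a median of 5.63% over members, with quartiles of 4.17 and 8.45%. It was under 5% for 41 members, 10% or more for 18 and 20% or more for 2. The median CV was 8.37% at ranks 101 to 1000 and 15.3% over all tested transcripts, a comparison in which more reads per transcript also narrow the counting error.

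The steadiest member in controls was ENSDART00000100813.6 (rank 56, CV 1.25%). It had 1098, 906, 985, 1075 and 901 CPM in LCO 10 mg/L replicates 1, 2, 3, 4 and 6, against 1141, 1109, 1146, 1132 and 1129 CPM in control replicates 1 to 5, so all LCO 10 mg/L libraries lay below the controls. ENSDART00000029646.7 (rank 21, CV 2.23%) was next, and its LCO 10 mg/L libraries (1851 to 2193 CPM) also lay below all controls (2236 to 2375 CPM). Neither difference was called. Both members were picked for the lowest CV over these controls, and a narrow control range favours a lack of overlap. Of all tested transcripts, 5.03% lay wholly below control at LCO 10 mg/L. At LCO 1 mg/L both members reached above and below the control range, at 865 to 1219 CPM and 1832 to 2681 CPM.

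After rank 2, the most variable member in controls was ENSDART00000138107.3 (rank 18, 919 bases, CV 29.4%). It had 3788, 1207, 1540, 1553 and 739 CPM in LCO 10 mg/L replicates 1, 2, 3, 4 and 6, against 3630, 4316, 3642, 3520 and 1687 CPM in control replicates 1 to 5. Its values were 739 to 3788 CPM at LCO 10 mg/L, 894 to 2364 at LCO 1 mg/L, 561 to 3884 under ion and 1687 to 4316 in control, so all groups overlapped. Its log2 fold change of -0.93 (SE 0.45) at LCO 10 mg/L against control was not called.

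Between 84 and 95 members were in the own top 100 of the LCO 10 mg/L libraries, 85 to 91 at LCO 1 mg/L, 89 to 96 under ion and 95 to 98 in control, where the list was made. Ranked by group mean TPM, 90 members stayed at LCO 10 mg/L, 90 at LCO 1 mg/L and 94 under ion. The newcomers came from control ranks down to 267 at LCO 10 mg/L and 248 at LCO 1 mg/L and under ion. The highest newcomer at LCO 1 mg/L was ENSDART00000110842.3 (rank 248 in control), at 3321 ± 884 TPM there (SD, n = 5). It was near 0 in control replicates 1 to 4 and at 2888 TPM in control replicate 5, and near 0 again in LCO 10 mg/L replicate 1 and ion replicate 3, so it was present or nearly absent pool by pool. ENSDART00000015732.8 averaged 2927 ± 656 TPM at LCO 1 mg/L, 2670 ± 626 under ion and 2113 ± 208 in control (SD, n = 5 each), and ENSDART00000123003.3 averaged 2698 ± 1003 TPM under ion and 1828 ± 237 in control (SD, n = 5 each).

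Each comparison was taken from 1 edgeR quasi-likelihood fit over all 20 libraries, and called transcripts are those with a p under 0.05 after Benjamini-Hochberg adjustment over all 39355 tested. At LCO 10 mg/L against control 11 of 100 members were called, against 6.28% of all transcripts tested. Of these 4 were higher (2.28% of all tested) and 7 lower (3.99%). At LCO 1 mg/L against control 12 members were called, against 12.7% of all tested, with 1 higher (4.34%) and 11 lower (8.41%). Under ion against control none of the 100 members was called by edgeR (0, with 0.0356% of all tested called, 0.00762% higher and 0.028% lower). An unadjusted p under 0.05 was found for 21, a count with no share over all tested beside it. DESeq2 called 0 members higher and 2 lower, with 77 higher and 350 lower of all 39355 tested. At ranks 101 to 1000, 148, 231 and 0 of 900 transcripts were called in the same 3 contrasts. These contrasts use the control values that chose the members, the 3 share 1 set of controls, and nothing is read from the counts.

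Shifts against control were small for most members. The fitted change was within 1.5-fold for 93 members at LCO 10 mg/L, 91 at LCO 1 mg/L and 97 under ion, and the median log2 fold change of the members was -0.06, -0.02 and -0.11 in that order, against -0.01, 0.00 and -0.00 over all tested. With no scaling beyond the total count, the calls at LCO 10 mg/L were 2 higher and 9 lower, with 495 and 1743 of all 39355 tested. Those at LCO 1 mg/L were 4 higher and 10 lower, with 1869 and 3052 of all tested. With RLE scaling those at LCO 1 mg/L were 3 higher and 10 lower, with 2132 and 3173 of all tested. All 5 libraries lay below all 5 controls in CPM for 11 members at LCO 10 mg/L (5.03% of all tested), 8 at LCO 1 mg/L (7.01%) and 8 under ion (1.84%), and above them for 0 (3.24%), 2 (3.12%) and 0 (1.25%) members.

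The LCO 10 mg/L calls against control moved with how the libraries were treated. Adding the fragment length gap to the fit left 0 members called. Over all 39355 tested it left 54 higher and 153 lower, against 898 and 1572 in the reported fit, so the loss was general. Leaving out the 8 libraries set apart on the first component leaves LCO 10 mg/L with 1 library assumed to vary like the other groups. Its calls in that setting are therefore not read. The largest falls among called members kept their direction with the gap. The log2 fold change of ENSDART00000188780.1 was -0.88 in the reported fit and -0.77 with the gap. That of ENSDART00000148846.2 was -0.72 and -0.69. With the gap neither was called (edgeR adjusted p = 0.0747 and 0.122). Without the 8 libraries they were -1.02 and -0.87, which rests on replicate 1 of LCO 10 mg/L alone and adds no separate observation. Without replicate 2 or replicate 6 of LCO 10 mg/L, or without control replicate 3, 5 were called. Removing replicate 3 or 4 of LCO 10 mg/L or control replicate 4 left 6, and removing control replicate 1 left 7. The numbers called over all tested in these fits are not set beside these counts. Whether the drop was particular to the members was not tested.

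**Figure D4:**
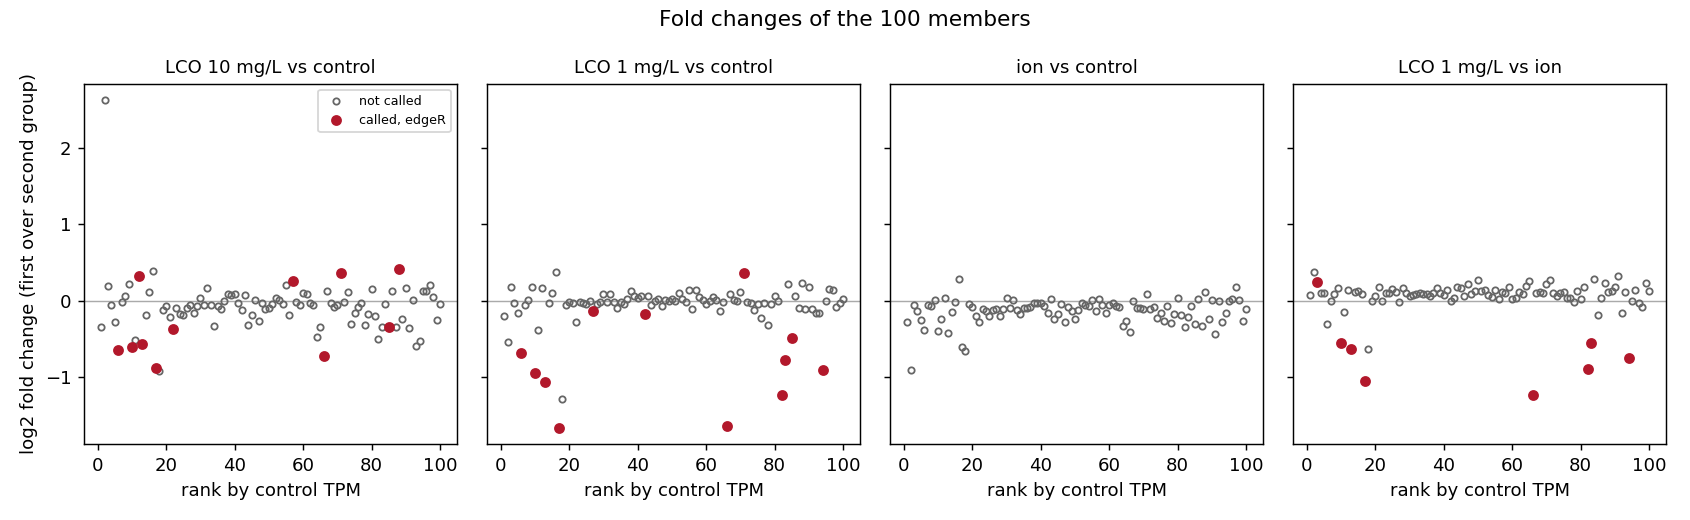
Fitted log2 fold change of each member against its rank in 4 comparisons, each as the first over the second group named, with filled points for members called by edgeR at an adjusted p under 0.05. Most points lie near 0. The 7 members called lower in the panel of LCO 1 mg/L against ion were also called lower at LCO 1 mg/L against control. Both panels share the LCO 1 mg/L libraries. Not every call recurs: the member at rank 6 was called lower against control (-0.69) but not against ion (-0.31).

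The largest falls among the called members belonged to 7 that were lowest at LCO 1 mg/L. LCO 1 mg/L against ion, a contrast the choice of members did not use, called 8 of 100 members, against 6.05% of all tested, with 1 higher (1.6%) and 7 lower (4.45%), so the number called was near the background. At ranks 101 to 1000, 121 of 900 were called. The 7 were at ranks 10, 13, 17, 66, 82, 83 and 94 and were 792 to 1223 bases long. In bulk samples fewer cells of a type and less RNA per cell cannot be told apart, and this holds for each fall described here.

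ENSDART00000188780.1 (rank 17) had 497, 810, 1083, 1102 and 955 CPM in LCO 1 mg/L replicates 1, 2, 3, 5 and 6, against 1829, 1755, 1817, 1796 and 2046 CPM in ion replicates 1, 2, 3, 4 and 6. The groups did not overlap, and every LCO 1 mg/L library was below the lowest ion library. It fell 2.08-fold at LCO 1 mg/L relative to ion (log2 fold change -1.06, SE 0.16; edgeR adjusted p = 0.00052, n = 5 each).

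ENSDART00000148846.2 (rank 66) had 372, 471, 704, 754 and 568 CPM in those LCO 1 mg/L libraries, against 1352, 1194, 1194, 1465 and 1550 CPM in those ion libraries. Again the groups did not overlap. It fell 2.35-fold (log2 fold change -1.24, SE 0.16; edgeR adjusted p = 0.00020, n = 5 each). Both calls were kept in all 19 alternatives tried, with adjusted p up to 0.0217.

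The other 5 fell less, by log2 fold changes of -0.56 to -0.89 at LCO 1 mg/L against ion, with edgeR adjusted p of 0.0012 to 0.0247. Of the 7, those at ranks 10, 13, 17, 66, 82 and 94 had every LCO 1 mg/L library below every ion library, and the one at rank 83 overlapped. Over all members 7 lay wholly below ion (4.28% of all tested), 1 of them outside the 7 called, and 1 lay wholly above (1.85%). With only the LCO 1 mg/L and ion libraries fitted, 4 members were called lower and 0 higher, without the number over all tested in that fit beside them. Without the 8 libraries set apart, 2 of the 7 were still called lower, and 2 members were called higher. Calls over all tested dropped too, to 317 lower and 72 higher of 43144, from 1751 and 629 of 39355 in the reported fit.

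The remaining call was a rise. ENSDART00000010144.7 (rank 3) had 8309, 7130, 8424, 8800 and 8499 CPM in LCO 1 mg/L replicates 1, 2, 3, 5 and 6, against 7280, 7498, 6765, 6640 and 6590 CPM in ion replicates 1, 2, 3, 4 and 6. LCO 1 mg/L replicate 2 lay among the ion libraries and the other 4 above them. The log2 fold change was 0.24 (SE 0.07; edgeR adjusted p = 0.0448, n = 5 each), and the call was kept in 7 of 19 alternatives, with adjusted p of 0.0062 to 0.162.

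The 2 LCO doses differed in 3 members, all among the 7. Those 7 were picked for low values in the LCO 1 mg/L libraries, which this comparison also uses, so that overlap was favoured by the choice. LCO 10 mg/L against LCO 1 mg/L called 3 of 100 members, all higher at 10 mg/L, against 0.213% of all tested (0.211% higher, 0.00254% lower), while 8 of the 900 transcripts at ranks 101 to 1000 were called. ENSDART00000188780.1 had 1387, 1665, 1748, 1595 and 1300 CPM in LCO 10 mg/L replicates 1, 2, 3, 4 and 6, all above the 497 to 1102 CPM of the LCO 1 mg/L libraries, a 1.73-fold rise (log2 fold change 0.79, SE 0.16; edgeR adjusted p = 0.0475, n = 5 each). ENSDART00000148846.2 had 974, 1242, 1190, 1161 and 863 CPM there, all above 372 to 754 CPM at LCO 1 mg/L, a 1.89-fold rise (log2 fold change 0.92, SE 0.16; edgeR adjusted p = 0.0219, n = 5 each). The third, at rank 82, was 1.67-fold higher (log2 fold change 0.74, SE 0.15; edgeR adjusted p = 0.0475, n = 5 each). These 3 were also the members whose LCO 10 mg/L libraries all lay above all LCO 1 mg/L libraries (1.1% of all tested), and 0 members lay wholly below (0.32%).

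The calls between doses were weaker than the fall relative to ion. Without the 8 libraries, which leaves 1 library at LCO 10 mg/L, the log2 fold change was 0.41 for ENSDART00000188780.1 and 0.53 for ENSDART00000148846.2. With only the 2 LCO groups fitted, none of the 3 was called (0). Leaving out any of replicates 2, 3 and 4 at LCO 10 mg/L, or replicates 2 and 6 at LCO 1 mg/L, also left 0. Leaving out replicate 1 of the higher dose, or any of replicates 1 and 5 of the lower, left 1. The numbers called over all tested in these fits are not set beside these counts. For the members at ranks 17 and 66 the direction was the same in all 20 alternatives, with log2 fold changes of 0.41 to 0.87 for ENSDART00000188780.1 and 0.53 to 1.03 for ENSDART00000148846.2.

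LCO 10 mg/L against ion called none of the 100 members with edgeR (0, with 0.17% of all tested called, 0.122% higher and 0.0483% lower). The unadjusted p was under 0.05 for 20 members. The share over all tested is not set beside that count, so nothing is read from it. DESeq2 called 6 members higher and 0 lower, with 501 higher and 398 lower of all 39355 tested. ENSDART00000188780.1 had a log2 fold change of -0.26 (SE 0.16; edgeR adjusted p = 0.578) and its LCO 10 mg/L libraries, 1300 to 1748 CPM, all lay below the ion libraries, 1755 to 2046 CPM. It was the single member wholly below ion (1.55% of all tested), and 0 lay wholly above (1.36%). ENSDART00000148846.2 had a log2 fold change of -0.31 (SE 0.16; edgeR adjusted p = 0.472), and its groups overlapped.

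Against control, whose values chose the members, ENSDART00000188780.1 was 1.84-fold lower at LCO 10 mg/L, 3.18-fold lower at LCO 1 mg/L and 1.53-fold lower under ion. Its control libraries had 2611, 3018, 2327, 3366 and 2813 CPM, above every exposed library. ENSDART00000148846.2 was 1.65-fold lower at LCO 10 mg/L, 3.12-fold lower at LCO 1 mg/L and 1.32-fold lower under ion, with 1668, 1903, 1490, 2045 and 1842 CPM in control replicates 1 to 5. The 7 were picked for low values in the LCO 1 mg/L libraries, which both contrasts share, so their distance from control there is a description.

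**Figure D5:**
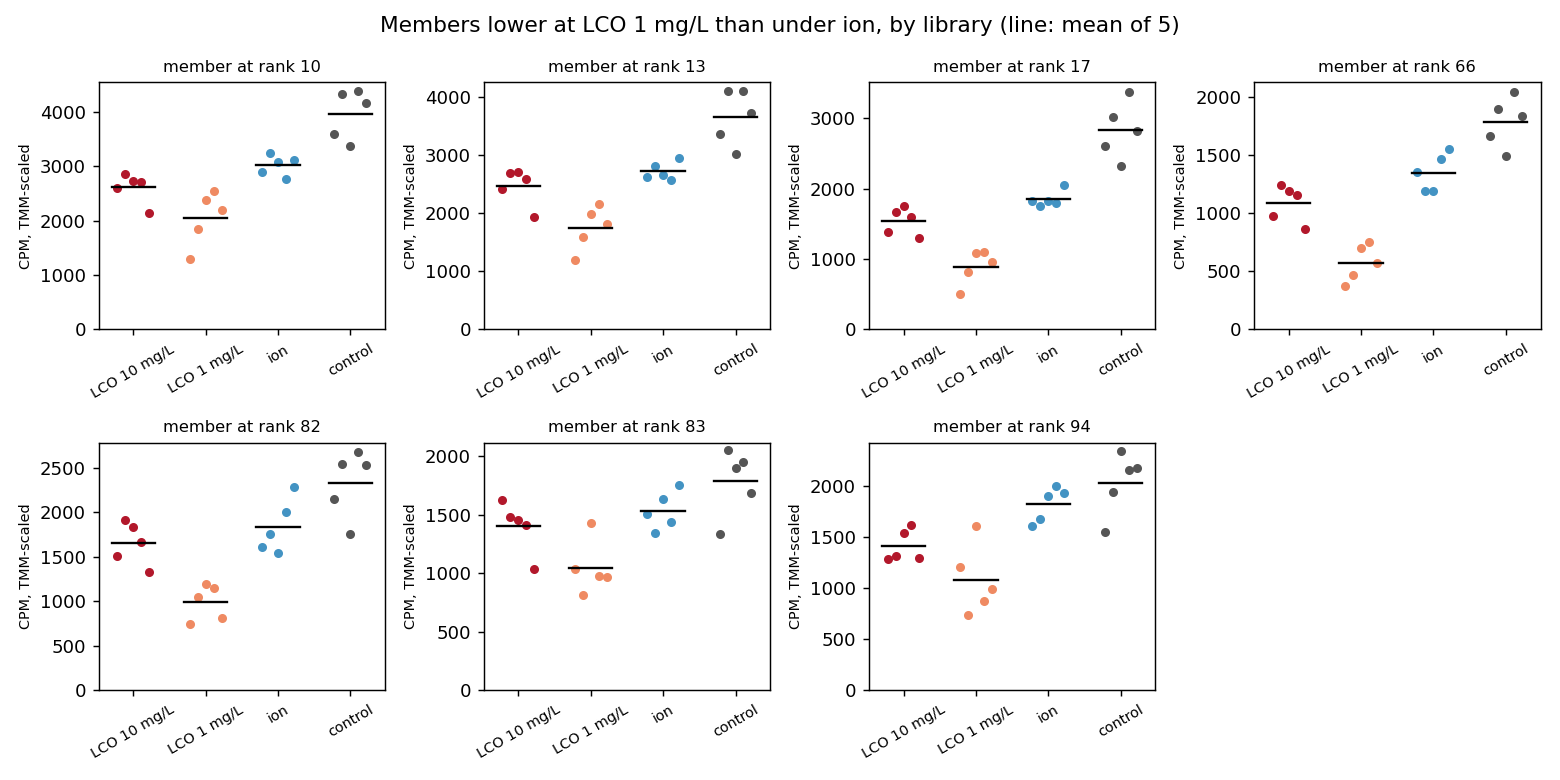
TMM-scaled CPM in each library for the 7 members called lower at LCO 1 mg/L than under ion, with group means as lines and axes from 0. In each panel the lowest mean is at LCO 1 mg/L and the highest in control, with LCO 10 mg/L and ion between them.

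The 7 moved together. Their summed level was 12167 ± 1389 CPM at LCO 10 mg/L, 8383 ± 1634 at LCO 1 mg/L, 14145 ± 864 under ion and 18396 ± 2073 in control (SD, n = 5 each). The LCO 1 mg/L libraries ran from 6345 to 10378 CPM and the controls from 16191 to 20689 CPM, with the ion libraries between them at 13432 to 15640 CPM. The LCO 10 mg/L libraries, at 9897 to 13213 CPM, overlapped the highest LCO 1 mg/L library and lay below the ion libraries. The contrast that picked the 7 used the ion values, so a high sum under ion was favoured by the choice. The gap to ion is therefore a description, and LCO 10 mg/L against ion called 0 members. Spearman's rho between pairs of the 7 over the 20 libraries was 0.73 to 0.98 (median 0.84, 21 pairs), against a median of 0.31 over all 4950 pairs of members. Since the 7 were chosen for a shared contrast within these libraries, this rho is a description.

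The largest called rises against control were small. ENSDART00000032481.6 (rank 71) averaged 4601 ± 693 CPM at LCO 10 mg/L, 4597 ± 347 at LCO 1 mg/L and 3574 ± 219 in control (SD, n = 5 each), a log2 fold change of 0.36 at each dose. ENSDART00000059366.7 (rank 88) averaged 4045 ± 695 CPM at LCO 10 mg/L against 3041 ± 107 in control (SD, n = 5 each), a log2 fold change of 0.41. At LCO 10 mg/L, replicate 1 of each lay within the control range, at 3440 and 2972 CPM. Without the 8 libraries set apart, both log2 fold changes at LCO 10 mg/L were near 0 with the opposite sign, at -0.05 and -0.03. That setting leaves only this replicate 1 at LCO 10 mg/L, so it adds no separate observation. At LCO 1 mg/L the log2 fold change of ENSDART00000032481.6 was 0.30 without the 8 libraries. Its call there was kept in 18 of 19 alternatives. It was lost with the fragment length gap in the fit (log2 fold change 0.23, edgeR adjusted p = 0.221). At LCO 10 mg/L the call of ENSDART00000032481.6 was kept in 8 of 20 alternatives and that of ENSDART00000059366.7 in 4 of 20.

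A further set of members shared a run of identifier numbers. Ranks 1, 4, 5, 6, 11, 22 and 78 carry numbers between 93606 and 93625, and the 12 identifiers from 93600 to 93625 in the files all passed the filter, with the other 5 at ranks 115 to 1666. The run was noticed in these data, and adjacent numbers show only that the identifiers were assigned together. The members most like rank 1 over the 20 libraries, by Spearman's rho on TPM, were ENSDART00000093613.3 (rho 0.93, rank 5) and ENSDART00000093612.3 (rho 0.90, rank 11), both from this run.

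ENSDART00000093609.3, at rank 1, had 7034, 5116, 5702, 6177 and 5247 CPM in LCO 10 mg/L replicates 1, 2, 3, 4 and 6, and 4998, 4989, 7220, 7317 and 7625 CPM in LCO 1 mg/L replicates 1, 2, 3, 5 and 6. It had 7086, 6793, 6576, 5396 and 4785 CPM in ion replicates 1, 2, 3, 4 and 6, and 6759, 7241, 7618, 7698 and 7772 CPM in control replicates 1 to 5. The 8 lowest values belonged to the 8 libraries set apart on the first component, which come from each exposed group and include no control. That component was computed from all tested transcripts, this member included. The other exposed libraries lay within or just below the control range. Its log2 fold changes against control were -0.34 at LCO 10 mg/L, -0.21 at LCO 1 mg/L and -0.28 under ion, none of them called.

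The 7 members of the run summed to 35007 ± 3666 CPM at LCO 10 mg/L, 36769 ± 5790 at LCO 1 mg/L, 35145 ± 3540 under ion and 40643 ± 2302 in control (SD, n = 5 each), or 3.42, 3.70, 3.59 and 4.04% of counts in that order. Each exposed group overlapped the controls. Within the run the size of the shift differed. ENSDART00000093606.3 (rank 4), the longest of the 7 at 1551 bases, had a log2 fold change of -0.06 at LCO 10 mg/L against control, and ENSDART00000093611.3 (rank 6), the shortest at 165 bases, one of -0.64. The other 5 did not order by length, with -0.37 at 1141 bases, -0.29 at 786, -0.34 at 691, -0.52 at 684 and -0.33 at 351 bases. ENSDART00000093611.3 was 1.56-fold lower than control at LCO 10 mg/L and 1.61-fold lower at LCO 1 mg/L. Without the 8 libraries set apart the median log2 fold change of the 7 was -0.18 at LCO 10 mg/L and -0.12 at LCO 1 mg/L, against -0.34 and -0.28 with all libraries. Those 8 are all exposed and held the 8 lowest values of the member at rank 1, so leaving them out favours a smaller shift. At LCO 10 mg/L that setting leaves only replicate 1. Nothing is read from the smaller medians.

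Length and shift were related in some comparisons between exposed groups and only weakly in those against control. Across the 100 members Spearman's rho between length and log2 fold change was 0.46 for LCO 10 mg/L against LCO 1 mg/L and 0.20 for LCO 10 mg/L against ion, compared with 0.01 and 0.06 over all tested transcripts. It was -0.25 for LCO 1 mg/L against ion, compared with 0.03. Against control rho was 0.12 at LCO 10 mg/L, -0.06 at LCO 1 mg/L and 0.11 under ion. Over all tested transcripts the values against control were 0.15, 0.13 and 0.14 in that order. Members share libraries and fragment lengths, so these are descriptions across transcripts, and the part of fragment length in them was not tested.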

How the data were processed

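RNA from pools of whole larvae was sequenced in 20 libraries, 5 in each of 4 groups set by the labels. The authors used kallisto 0.45.0 with GRCz11, beside cutadapt 1.18 and FastQC 0.11.5, per the submitters' processing notes; settings are not given in the sources used here. The authors deposited, per library and transcript, its estimated count, TPM, length and effective length, per the file headers. Estimated counts share reads between similar transcripts, so they need not be whole, and TPM rests on the effective length, which is least certain in short transcripts.

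Members were ranked by deposited TPM. Estimated counts were rounded, filtered (filterByExpr, minimum count 10, at least 99.86% of counts kept in each library) and TMM-scaled in edgeR 4.0.16 (R 4.3.3). One fit by group gave 6 comparisons, tested two-sided. The SE is the size of the log2 fold change over the square root of F. DESeq2 1.42.0 and limma 3.58.1 (voom) were alternatives. No 2 libraries were identical, and counts of all 40 same-group pairs differed beyond sampling noise (chi-square over its degrees of freedom 12.0 or more). The gap in effective length was read from transcripts over 3000 bases.

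Named transcripts are ranks 1 to 10, ranks 99 to 102, the 2 largest called rises and falls per comparison, the 2 highest and 2 lowest control CVs, the 2 most like rank 1 and the 2 highest non-members per exposed group. Members, lists and tests were chosen with earlier results of these data known. The marker lists could not be applied without gene names. Sequences were not used here.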

Additional observations from a re-analysis of the deposited data

Results flagged for a closer look

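Library values far from the rest of their group were found for 5 of the members described above, in 7 of 92 groups looked at. By chance about 1 group in 20 would be marked. ENSDART00000182970.1 and ENSDART00000138107.3 were named for the highest control CV, which favours outlying control libraries, so nothing is read from the 2 rates. For ENSDART00000182970.1 the outlying libraries were LCO 10 mg/L replicate 2 at 14189 CPM, LCO 1 mg/L replicate 2 at 679 CPM and control replicate 4 at 1830 CPM. ENSDART00000138107.3 was high in LCO 10 mg/L replicate 1, at 3788 CPM. ENSDART00000188780.1 was high in ion replicate 6, at 2046 CPM. ENSDART00000023156.7 was low in LCO 1 mg/L replicate 6, at 10403 CPM, and ENSDART00000143913.3 was low in control replicate 1, at 946 CPM against 1063 to 1103 CPM in the other 4 controls.

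Differences between exposed groups that passed the test concerned 3 members named by the rule. ENSDART00000148846.2 had a log2 fold change of 0.92 for LCO 10 mg/L against LCO 1 mg/L and -1.24 for LCO 1 mg/L against ion, and ENSDART00000188780.1 of 0.79 and -1.06. ENSDART00000010144.7 had 0.24 for LCO 1 mg/L against ion. The first 2 comparisons share the LCO 1 mg/L libraries.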

How the results depend on the processing

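Of the summary values under all alternatives, 159 stayed close to the reported value and 62 moved; of the values of named transcripts, 181 kept call and direction, 66 lost the call, 3 gained it and 4 reversed. Members called at LCO 10 mg/L against control (11) numbered 6 with no filter, 18 with DESeq2, 23 with only both groups fitted, 0 with the gap covariate, 0 without the 8 libraries, 6 in the top 50, 27 in the top 200, 5 without replicates 2 and 3 together, and 5 to 15 leaving out 1 library. LCO 1 mg/L against control (12) gave 7 for the top 100 over all 20 libraries, 6 for the top 50 and 29 for the top 200. Ion against control (0) gave 2 with DESeq2. LCO 10 mg/L against LCO 1 mg/L (3) gave 1 with no filter, 5 with DESeq2, 1 with limma-voom, 0 with only both groups fitted, 0 without the 8 libraries, 1 for the top 100 over all 20 libraries, 1 for the top 50, 0 without replicates 2 and 3 together, and 0 to 3 leaving out 1 library. LCO 10 mg/L against ion (0) gave 6 with DESeq2, 2 for the top 200 and 0 to 1 leaving out 1 library. LCO 1 mg/L against ion (8) gave 14 with DESeq2, 4 with only both groups fitted, 4 without the 8 libraries, 4 for the top 100 over all 20 libraries, 4 for the top 50 and 21 for the top 200. The causes were not tested, apart from the lists of other lengths, which hold other numbers of transcripts. The number called over all tested transcripts also changed between fits, and it is not set beside each count here. Without the 8 libraries LCO 10 mg/L holds 1 library, so its counts in that setting are not read.

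Replicate numbers did not pair the libraries: 3 of 25 same-numbered pairs had a correlation of deviations over 0.1, and 4 of 20 libraries correlated best with their own number. A replicate block gave 7 members at LCO 10 mg/L against control and 0 between the LCO doses, and left the other counts within 1.5 times.

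At LCO 10 mg/L, LCO 1 mg/L, ion and control in this order, the share of counts was 21.5, 21.6, 21.3 and 22.6%, the share of TPM of the top 50 was 31.2, 27.7, 27.1 and 28.4%, and that of the top 200 was 57.4, 54.9, 53.9 and 55.6%. Without the highest member it was 39.7% under ion and 40.9% in control. Without ENSDART00000182970.1 it was 38.9% at LCO 10 mg/L and 40.9% in control. Reversed log2 fold changes at LCO 10 mg/L against control were those of ENSDART00000059366.7 (-0.029), ENSDART00000032481.6 (-0.052) and ENSDART00000182970.1 (-0.53) without the 8 libraries, and of ENSDART00000182970.1 (-0.63) without replicates 2 and 3. Leaving out the 8 libraries left only replicate 1 at LCO 10 mg/L. How far depth limits these values beside the spread between pools was not compared.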
